A study of Mus musculus with 16 samples.

Results

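A set of 9 genes that mark large peritoneal macrophages were followed in tumor-associated macrophages (TAMs) that were separated by Tim-4. They were chosen by symbol, with earlier results of these samples known, and not by a cut on their measured values. They are *Adgre1*, *Icam2*, *Selp*, *Cd9*, *Cd93*, *Prg4*, *Lbp*, *Cd14* and *Garnl3*, or 9 of the 55604 genes counted in each library. All 9 were found by their mouse Ensembl identifiers and all 9 passed the filter on low counts. The group is called a set of surface markers, but only 6 of its products are held at the cell surface. *Prg4* and *Lbp* encode secreted proteins, and *Garnl3* encodes an intracellular protein with a GTPase-activating domain.

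Paired Tim-4+ and Tim-4- TAMs, 4 pairs in all, were taken for RNA sequencing from the peritoneal cavity of C57BL/6 mice bearing ID8 tumors, a mouse ovarian cancer line that grows in the peritoneum, to ask how far the subsets differ in their transcripts. Wild-type female mice, 6 to 8 weeks old, received luciferase-labeled ID8 cells in the peritoneal cavity, so both subsets came from tumor-bearing hosts and neither came from healthy mice. That age is the one at entry to the study, and the paper places the sort for sequencing weeks into tumor growth. Tumor cells and dead cells were largely removed on Ficoll, Tim-4+ TAMs were then captured with a Tim-4 antibody, and Tim-4- TAMs were enriched from the remaining cells with beads against F4/80, the product of *Adgre1*. The pairs carry the numbers 793, 784, 783 and 779, and the labels do not say how many mice stand behind each number, so p-values measure the spread between these samples only. Each subset had 1 library in each pair (n = 4 per subset), sequenced in 2 lanes that were summed here.

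The peritoneal cavity of mice holds large macrophages, with much F4/80 and little MHC-II, and small macrophages with little F4/80 and much MHC-II. Large macrophages are mostly long-lived residents that depend on the transcription factor GATA6, and Tim-4 is found on many of them, whereas small macrophages are replaced from blood monocytes. F4/80, ICAM-2, CD9, CD93 and CD14 are seen on resident cells, and P-selectin, lubricin and lipopolysaccharide (LPS) binding protein are part of the unusual program of these macrophages, which overlaps with that of platelets, joints and liver.

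Libraries held between 53527928 and 57768202 counts on genes in Tim-4+ TAMs and between 55618306 and 69594245 in Tim-4- TAMs. A minimum of 3 counts corresponds to between 0.0431 and 0.0560 CPM, the count scaled to the size of its library. This floor used library totals alone, whereas the CPM levels were also scaled by normalization (TMM) factors between 0.833 and 1.181. Every level given for a member was far above the counting floor on either scale. *Timd4*, which encodes Tim-4, had 1161, 1744, 524 and 1166 CPM in Tim-4+ TAMs and 85.0, 11.1, 22.3 and 1.97 CPM in Tim-4- TAMs of pairs 793, 784, 783 and 779. The sort was thus visible in every pair, with most *Timd4* left in Tim-4- TAMs of pair 793 and least *Timd4* among Tim-4+ libraries in pair 783. The same 2 libraries stood apart for the 9 genes. The Tim-4+ library of pair 783 was the lowest Tim-4+ library for 7 of the 9, and the Tim-4- library of pair 793 was the highest Tim-4- library for 8 of the 9. Counts are therefore also given without these pairs. Fewer cells of a type and less RNA per cell cannot be told apart in bulk samples.

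All 9 genes were higher in Tim-4+ TAMs, and the Tim-4+ library lay above the Tim-4- library in all 36 comparisons of a gene within a pair. The log2 fold change in the paired fit ranged from 0.93 for *Cd9* and *Cd14* to 3.14 for *Prg4*, with a median of 2.13, against -0.00 over all 16861 genes tested. All 9 passed an adjusted p of 0.05 in the quasi-likelihood test of edgeR, adjusted by Benjamini-Hochberg over all tested genes, where 8.97% of all tested genes passed as higher. At an additional 2-fold difference 7 of the 9 passed, all but *Cd9* and *Cd14*, where 3.8% of all tested genes passed as higher and 3.42% of the 8770 tested genes whose mean was at least 10 CPM. None of the 9 was lower, where 5.79% of all tested genes passed as lower. In 3 of the 9, *Adgre1*, *Prg4* and *Lbp*, every Tim-4+ library lay above every Tim-4- library, a pattern that 6.84% of all tested genes showed.

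The calls rested on the pairing more than the directions did. Without the pair number in the fit the log2 fold changes ran from 0.90 to 3.07, and adjusted p stayed under 0.05 only for *Prg4* (0.0448) and *Lbp* (0.0119). With pair 784 left out, *Prg4* and *Lbp* were again the only 2 that passed, with pair 779 left out 5 passed, and with pair 783 left out all 9 passed. With pair 793 left out 8 passed, and *Cd93* did not. Without the filter on low counts 6 passed, and *Icam2*, *Selp* and *Cd93* did not. At an adjusted p under 0.05 with 2-fold, calls over all tested genes fell as well. They went from 641 higher to 127 without the pair number, 76 without pair 784 and 266 without pair 779. Calls among the 9 genes went from 7 to 2, 2 and 5 in these settings. With both pairs 783 and 793 left out, a choice made after the data were seen that leaves 1 residual degree of freedom, the log2 fold changes of the 9 genes ran from 1.07 to 3.80.

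**Figure D1:**
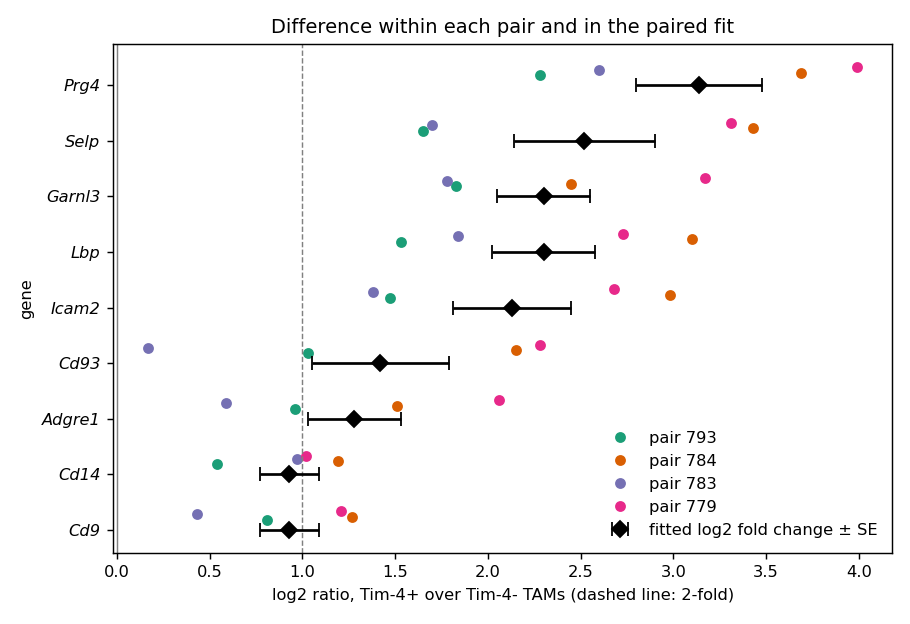
Log2 ratio of Tim-4+ over Tim-4- TAMs (x axis) for each of the 9 genes (y axis), with a colored point for each pair and a black diamond with its standard error for the paired fit. All points lie right of 0, and the points of pairs 784 and 779 lie right of those of pairs 793 and 783 in every gene.

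*Adgre1* encodes F4/80, an adhesion G protein-coupled receptor that is the classical marker of mouse macrophages (ENSMUSG00000004730.15, chromosome 17, 57358691 to 57483527 on the plus strand of GRCm38, 22 exon blocks). Its level was 2206, 2428, 1225 and 2466 CPM in Tim-4+ TAMs of pairs 793, 784, 783 and 779, and 1138, 851, 812 and 592 CPM in Tim-4- TAMs. The subsets did not overlap, but the lowest Tim-4+ library, of pair 783, was only 1.08 times the highest Tim-4- library, of pair 793. The fold was 2.43 (log2 fold change 1.28, standard error 0.25, adjusted p = 0.0172), with log2 ratios between 0.59 in pair 783 and 2.06 in pair 779. It was the Tim-4- TAMs, with the lower *Adgre1* level, that had been enriched with beads against F4/80.

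Other adhesion G protein-coupled receptors and the relatives of CD93 did not move as a group. Of 15 tested genes of that list, which leaves out *Adgre1* and *Cd93*, 2 were higher and 2 lower at an adjusted p under 0.05, with a median log2 fold change of -0.38. *C1qbp*, counted among the 15 (log2 fold change -0.08), belongs to neither family. *Adgre4*, which encodes a receptor of the F4/80 family, was higher (57.6 ± 31.7 against 15 ± 11 CPM, SD, n = 4 each, log2 fold change 1.99, adjusted p = 0.0122). *Cd248* (-2.30, adjusted p = 0.0230), a stromal marker, and *Adgrl2* (-1.99, adjusted p = 0.0298) were lower on the log2 scale. *Adgre5*, which encodes CD97 and had the highest mean CPM of the list over all 8 libraries (a measure not divided by length, used alike for the other lists), had 1095 ± 286 and 864 ± 339 CPM (SD, n = 4 each, log2 fold change 0.38, adjusted p = 0.106).

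*Cd93* encodes a type I membrane protein with a C-type lectin domain that takes part in adhesion and in the clearance of dying cells (ENSMUSG00000027435.8, chromosome 2, 148436640 to 148443563 on the minus strand, 2 exon blocks). It had 410, 199, 269 and 671 CPM in Tim-4+ TAMs and 201, 44.8, 239 and 139 CPM in Tim-4- TAMs, in the same order of pairs. The subsets overlapped, since the Tim-4- libraries of pairs 783 and 793 lay above the Tim-4+ library of pair 784. Unlike the other 8 genes, *Cd93* was highest among Tim-4- libraries in pair 783, where the subsets were nearly level (log2 ratio 0.17). The fold was 2.67 (log2 fold change 1.42, standard error 0.37, adjusted p = 0.0467), the closest of the 9 to the threshold. It was lost when genes were filtered at 50 counts in all 8 libraries (adjusted p = 0.0519).

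*Icam2* encodes ICAM-2, a ligand of the leukocyte integrin LFA-1 (ENSMUSG00000001029.15, chromosome 11, 106377656 to 106388075 on the minus strand, 7 exon blocks). In Tim-4+ TAMs its level was 548, 492, 112 and 534 CPM, and in Tim-4- TAMs 198, 62.2, 42.9 and 83.3 CPM. Pair 783 had the lowest level in both subsets, and its Tim-4+ library lay below the Tim-4- library of pair 793, so the subsets overlapped. Within pairs the difference was at least 1.38 on the log2 scale, and the fold was 4.37 (log2 fold change 2.13, standard error 0.32, adjusted p = 0.0113).

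*Selp* encodes P-selectin, an adhesion receptor stored in platelets and endothelial cells (ENSMUSG00000026580.16, chromosome 1, 164115264 to 164150026 on the plus strand, 17 exon blocks). Its level was 746, 743, 218 and 716 CPM in Tim-4+ TAMs and 238, 68.9, 66.9 and 71.9 CPM in Tim-4- TAMs. In each subset 3 libraries lay close together and 1 lay apart, the Tim-4+ library of pair 783 below the others and the Tim-4- library of pair 793 above them, which made the subsets overlap. The fold was 5.75 (log2 fold change 2.52, standard error 0.38, adjusted p = 0.0116), the second largest of the 9. It was 2.84 on the log2 scale at its highest, and 2.21 at its lowest, when single pairs were left out.

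The DNA just upstream of *Selp* is shown because this gene had the only match to a searched motif among the 3 members whose promoter windows were searched, *Selp*, *Cd9* and *Garnl3*. No window of the other members was searched. The window is the 250 bases before the RefSeq start, chr1:164115014-164115263 on the plus strand of GRCm38.p6, with the match in capitals.
Selp: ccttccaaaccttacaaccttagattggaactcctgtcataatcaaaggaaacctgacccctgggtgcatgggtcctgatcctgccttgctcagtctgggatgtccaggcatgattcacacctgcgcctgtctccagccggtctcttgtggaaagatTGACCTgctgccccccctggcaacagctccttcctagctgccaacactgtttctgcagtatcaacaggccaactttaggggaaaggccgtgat
The capitals read AGGTCA on the opposite strand, the half-site of nuclear receptors such as those for retinoids, and begin 93 bases before the start. This half-site was present in 14% of the 250-base windows of all 32851 promoters, on either strand. No GATA motif (GATAA or GATAG after A or T, 26.5% of windows), PU.1 core (GAGGAA, 23.3%), AP-1 motif (TGACTCA, 4.46%) or TATA box (TATAAA, 12.4%) was in the window. A match or its absence describes these letters only.

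*Selp* shares exon sequence with 2 genes on the opposite strand, *Gm16587* (186 bases shared) and *Gm16548* (438 bases), and the counting is not stated to use strand. In Tim-4+ TAMs they had 6.36 ± 4.14 and 2.73 ± 1.72 CPM, against 1.19 ± 0.924 and 0.675 ± 0.653 CPM for Tim-4- (SD, n = 4 each), with log2 fold changes of 2.34 (adjusted p = 0.00999) and 2.14 (adjusted p = 0.0174). Their levels were small beside the 606 ± 259 and 111 ± 84.4 CPM of *Selp* (SD, n = 4 each), and reads of the genes cannot be told apart without strand.

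The partners of ICAM-2 and P-selectin split. Of 17 tested genes, 4 were higher and 4 lower at an adjusted p under 0.05, with a median log2 fold change of 0.18. *Selplg*, which encodes PSGL-1, the ligand of P-selectin, was higher (1196 ± 235 against 493 ± 200 CPM, SD, n = 4 each, log2 fold change 1.35, adjusted p = 0.00883). *St3gal4*, a sialyltransferase of selectin ligands, was higher by 1.05 (adjusted p = 0.0173), and *St3gal6* was lower (-1.61, adjusted p = 0.0120). *Vcam1*, which mesothelial cells also express, was lower (-2.73, adjusted p = 0.00637), as was *Ezr* (-1.01, adjusted p = 0.0351), which encodes ezrin. The integrin chains *Itgam* and *Itgb2*, the gene with the highest mean CPM of the list at 3616 ± 984 and 1645 ± 458 CPM (SD, n = 4 each), were higher by 1.24 (adjusted p = 0.00855) and 1.14 (adjusted p = 0.0123). *Itgal*, the alpha chain of LFA-1 that binds ICAM-2 and a gene named after its values were seen, was lower (53.3 ± 15.7 against 91.7 ± 47.6 CPM, SD, n = 4 each, log2 fold change -0.71, adjusted p = 0.0128).

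*Cd9* encodes a tetraspanin that organizes integrins and other proteins in the membrane (ENSMUSG00000030342.8, chromosome 6, 125460266 to 125494791 on the minus strand, 10 exon blocks). It had 499, 458, 270 and 396 CPM in Tim-4+ TAMs and 284, 190, 201 and 172 CPM in Tim-4- TAMs. Only the Tim-4+ library of pair 783 fell within the range of the Tim-4- libraries, below that of pair 793. The fold was 1.91 (log2 fold change 0.93, standard error 0.16, adjusted p = 0.0125), just under 2-fold, and the log2 ratio ran from 0.43 in pair 783 to 1.27 in pair 784. *Gm28809* and *Gm26728* lie on the opposite strand of *Cd9*, the latter sharing 218 exon bases, and had log2 fold changes of 0.59 (adjusted p = 0.178) and 0.99 (adjusted p = 0.25).

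The upstream window of *Cd9* is shown for comparison with that of *Selp*, chr6:125494761-125495010 on the minus strand of GRCm38.p6, and held none of the motifs. In the GENCODE annotation *Cd9* reaches to 125494791, so the window bases nearest the RefSeq start lie within the annotated gene.
Cd9: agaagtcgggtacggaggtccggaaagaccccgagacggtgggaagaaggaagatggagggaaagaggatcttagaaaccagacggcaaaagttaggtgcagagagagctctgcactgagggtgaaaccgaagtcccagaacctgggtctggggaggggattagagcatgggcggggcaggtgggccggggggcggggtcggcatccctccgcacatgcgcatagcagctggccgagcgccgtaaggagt
All windows are written 5′ to 3′ in the direction of transcription.

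Other tetraspanins and CD9 partners were centered near 0. Of 20 tested genes, 5 were higher and 1 lower at an adjusted p under 0.05, with a median log2 fold change of 0.06. *Tspan13* (1.47, adjusted p = 0.0229), *Cd37* (1.38, adjusted p = 0.0157), a tetraspanin of leukocytes, and *Itga6* (1.36, adjusted p = 0.0231), an integrin chain that pairs with beta 1, were higher on the log2 scale. *Tspan33* was lower (-1.90, adjusted p = 0.0106) at levels of 0.635 ± 0.337 and 2.34 ± 1.37 CPM (SD, n = 4 each). *Itgb1*, the gene with the highest mean CPM of the list, had 1169 ± 323 and 623 ± 80.9 CPM (SD, n = 4 each, log2 fold change 0.87, adjusted p = 0.0137).

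*Cd14* encodes the co-receptor that hands LPS to the TLR4 complex (ENSMUSG00000051439.6, chromosome 18, 36725067 to 36726798 on the minus strand, 1 exon block). Its level was 1597, 1500, 965 and 1547 CPM in Tim-4+ TAMs and 1101, 658, 493 and 761 CPM in Tim-4- TAMs. Pair 783 was lowest in both subsets, and its Tim-4+ library lay below the Tim-4- library of pair 793. The fold was 1.90 (log2 fold change 0.93, standard error 0.16, adjusted p = 0.0115), with log2 ratios from 0.54 in pair 793 to 1.19 in pair 784.

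*Lbp* encodes the secreted protein that delivers LPS to CD14 and is otherwise known from liver (ENSMUSG00000016024.9, chromosome 2, 158306493 to 158332852 on the plus strand, 15 exon blocks). It had 223, 325, 264 and 338 CPM in Tim-4+ TAMs and 77.2, 37.8, 73.6 and 51.0 CPM in Tim-4- TAMs. The subsets were well apart, with the lowest Tim-4+ library at 2.89 times the highest Tim-4- library, and the Tim-4+ library of pair 783 was within the range of the other Tim-4+ libraries. The fold was 4.93 (log2 fold change 2.30, standard error 0.28, adjusted p = 0.00840). *Lbp* thus differed more than *Cd14*, by log2 ratios of 1.53 to 3.10 against 0.54 to 1.19 within pairs.

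The rest of the LPS recognition list had a smaller median. Of 17 tested genes, 6 were higher and 0 lower at an adjusted p under 0.05 in edgeR's test, with a median log2 fold change of 0.28. The 3 that also passed 2-fold were *Itgam* and *Itgb2*, which form complement receptor 3, and *Irak3* (1.25, adjusted p = 0.00778), which encodes an inhibitor of signaling from Toll-like receptors. *Tlr4*, the signaling receptor itself and named after its values were seen, had 53.6 ± 5.53 and 55.1 ± 13.5 CPM (SD, n = 4 each, log2 fold change -0.01, standard error 0.13, adjusted p = 0.956). *Ly96*, which encodes MD-2, the LPS-binding partner of TLR4 and was named in the same way, was higher by 0.74 (adjusted p = 0.0136).

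*Prg4* encodes lubricin, a secreted mucin-like glycoprotein known as the lubricant of joints (ENSMUSG00000006014.16, chromosome 1, 150449412 to 150466165 on the minus strand, 13 exon blocks). Its level was 11641, 12163, 3977 and 12435 CPM in Tim-4+ TAMs and 2400, 942, 656 and 782 CPM in Tim-4- TAMs. All Tim-4+ libraries lay above all Tim-4- libraries, by 1.66 times at the closest, with pair 783 lowest in both subsets and pair 793 highest among Tim-4- libraries. The fold was 8.81 (log2 fold change 3.14, standard error 0.34, adjusted p = 0.00516), the largest of the 9. *Prg4* alone accounted for 0.875% ± 0.332 of all counts for Tim-4+ and 0.132% ± 0.0815 for Tim-4- TAMs (SD, n = 4 each). *Tpr*, on the opposite strand, shares 204 exon bases with *Prg4* and had 257 ± 20.0 and 214 ± 25.4 CPM (SD, n = 4 each, log2 fold change 0.27, adjusted p = 0.131).

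*Garnl3* encodes a protein with a Rap and Ran GTPase-activating domain (ENSMUSG00000038860.15, chromosome 2, 32986224 to 33131654 on the minus strand, 34 exon blocks). It had 252, 181, 58.8 and 239 CPM in Tim-4+ TAMs and 70.9, 33.2, 17.1 and 26.4 CPM in Tim-4- TAMs. Pair 783 was lowest in both subsets, and the subsets overlapped only because its Tim-4+ library lay below the Tim-4- library of pair 793. The fold was 4.94 (log2 fold change 2.30, standard error 0.25, adjusted p = 0.00637). *Gm38299*, annotated within introns of *Garnl3* on the same strand, had 9.46 ± 5.2 and 1.37 ± 1.3 CPM (SD, n = 4 each, log2 fold change 2.96, adjusted p = 0.00872).

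The window upstream of the first RefSeq start of *Garnl3*, chr2:33131437-33131686 on the minus strand of GRCm38.p6, held none of the motifs. It is shown because this gene had one of the larger differences. In the GENCODE annotation *Garnl3* reaches to 33131654, so most of this window lies within the annotated gene.
Garnl3: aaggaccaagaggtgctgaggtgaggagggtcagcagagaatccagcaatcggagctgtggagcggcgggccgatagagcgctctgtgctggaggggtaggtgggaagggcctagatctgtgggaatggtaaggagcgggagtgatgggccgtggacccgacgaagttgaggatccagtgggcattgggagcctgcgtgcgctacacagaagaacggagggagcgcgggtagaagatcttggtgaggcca
A second start listed for *Garnl3* was searched in the same way, with no match.

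Genes of Rap signaling had differences centered near 0. Of 20 tested Rap GTPases, their activators and GTPase-activating proteins for Rap and related GTPases (*Ralgapa1*, *Ralgapa2* and *Ralgapb* act on Ral and *Tsc2* on Rheb), 2 were higher and 1 lower at an adjusted p under 0.05 and 0 passed 2-fold in edgeR's test, with a median log2 fold change of 0.03. *Rap1b*, the highest by mean CPM, had 963 ± 152 and 751 ± 174 CPM (SD, n = 4 each, log2 fold change 0.38, adjusted p = 0.127).

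**Figure D2:**
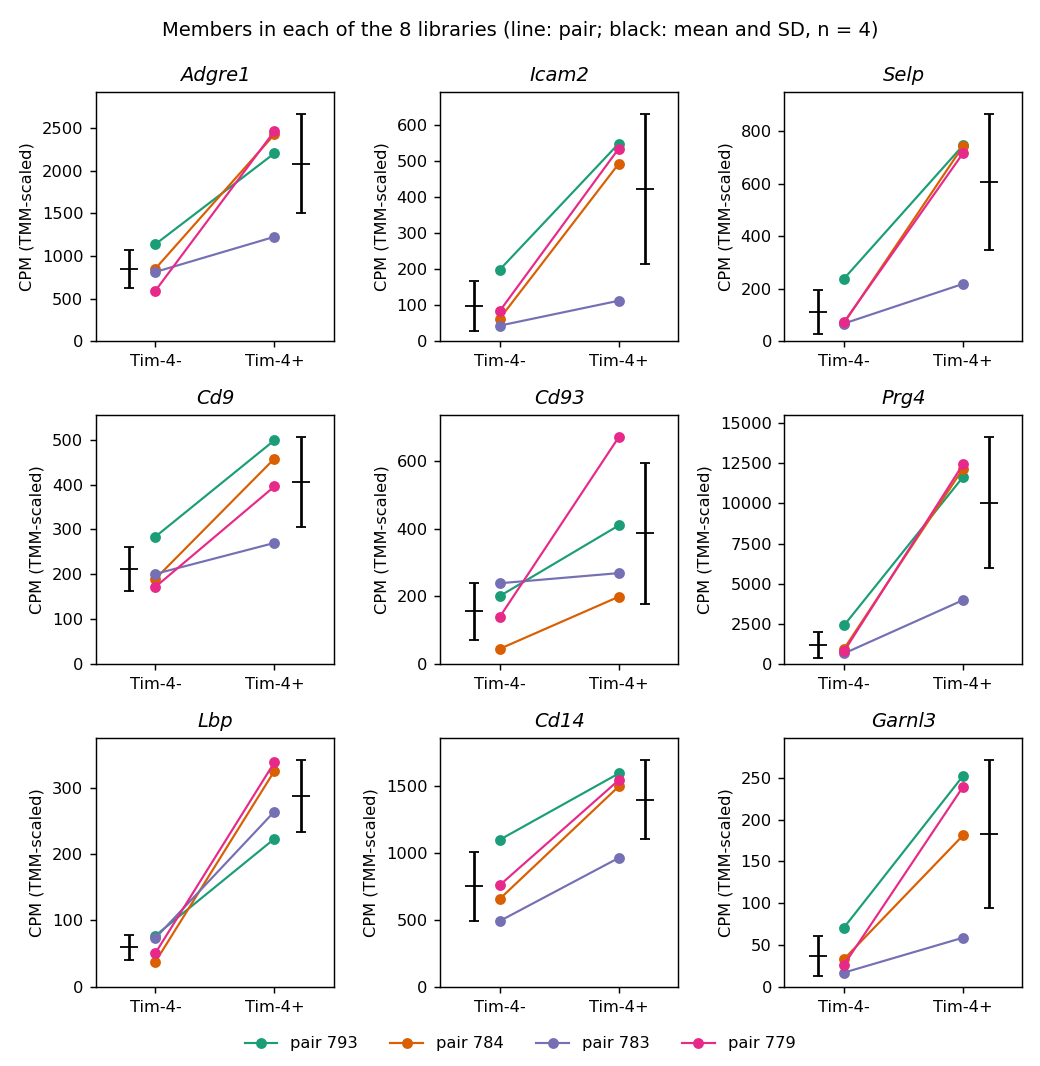
CPM on a linear axis from 0 in each of the 8 libraries for the 9 genes, with 1 color and 1 line per pair, and the mean and SD of each subset in black beside the points (n = 4). Every line rises from Tim-4- to Tim-4+ TAMs, and the Tim-4+ library of pair 783 is the lowest Tim-4+ library in 7 of the 9 genes.

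Levels can be compared between genes only per exon length, and for this reads per exon kilobase were scaled to the same total in each library (the TPM scale, over 54809 genes with an exon length). In Tim-4+ TAMs the order was *Prg4* (6032 ± 2283), *Cd14* (2098 ± 372), *Adgre1* (1659 ± 401), *Icam2* (567 ± 271), *Cd9* (516 ± 122), *Selp* (353 ± 145), *Lbp* (154 ± 23.6), *Cd93* (148 ± 69.1) and *Garnl3* (37.9 ± 17.4), as means with SD over 4 libraries. *Prg4* ranked 17th, *Cd14* 63rd and *Adgre1* 78th of all genes by this level in Tim-4+ TAMs. The neighbors *Icam2* and *Cd9* did not differ beyond their spread (mean log2 difference -0.05 ± 0.76, SD over 4 libraries), nor did *Lbp* and *Cd93* (0.17 ± 0.79).

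In Tim-4- TAMs *Cd14* took the first place (1547 ± 454), ahead of *Prg4* (984 ± 608) and *Adgre1* (938 ± 227) on the same scale (SD, n = 4). *Cd14* lay above *Prg4* in all 4 Tim-4- libraries (0.78 ± 0.45 on the log2 scale, SD), whereas *Prg4* lay above *Cd14* in all 4 Tim-4+ libraries (1.43 ± 0.47). *Prg4* and *Adgre1* did not differ beyond their spread in Tim-4- TAMs (-0.07 ± 0.58), nor did *Selp* (88.3 ± 61.3) and *Cd93* (81.8 ± 42.9). *Garnl3* was the lowest in both subsets, at 10.6 ± 6.18 in Tim-4- TAMs.

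**Figure D3:**
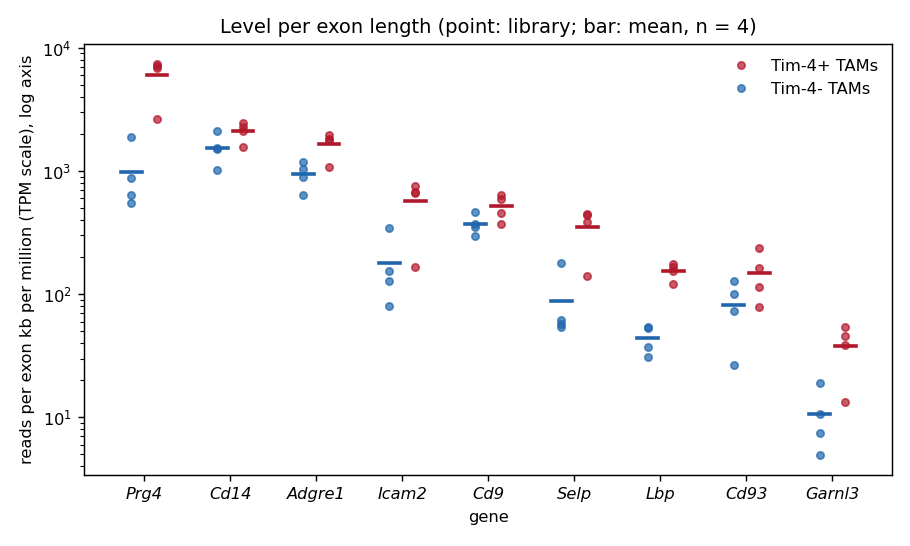
Level per exon length (TPM scale, log axis) of the 9 genes in Tim-4+ TAMs (red) and Tim-4- TAMs (blue), with 1 point per library and a bar at the mean of 4. *Prg4* leads in Tim-4+ TAMs at a mean of 6032, and *Cd14* leads in Tim-4- TAMs at a mean of 1547.

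The size of the difference varied among the 9 genes. Within pairs, *Prg4* exceeded *Selp*, the next in order, in all 4 pairs by 0.61 ± 0.26 (log2, SD over 4 pairs). *Selp* and *Garnl3* (0.22 ± 0.53) and *Garnl3* and *Lbp* (0.01 ± 0.49) did not differ beyond the spread between pairs, and *Lbp* exceeded *Icam2* in all 4 pairs but by a mean below its SD (0.17 ± 0.20). *Icam2* exceeded *Cd93* in all 4 pairs by 0.72 ± 0.38, and below it *Cd93* and *Adgre1* (0.13 ± 0.44) and *Cd9* and *Cd14* (0.00 ± 0.37) did not differ beyond the spread. *Adgre1* exceeded *Cd9* in all 4 pairs, by 0.35 ± 0.34. These orders are descriptions without a test.

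The size of the difference also followed the pair. The median log2 ratio of the 9 genes was 1.47, 2.45, 1.38 and 2.68 in pairs 793, 784, 783 and 779, while the median over all tested genes was between -0.01 and 0.02 in these pairs. The smallest ratio was in pair 783 for 5 genes and in pair 793 for 4, and the largest was in pair 784 for 5 and in pair 779 for 4. In all 9 genes both ratios of pairs 784 and 779 exceeded both ratios of pairs 793 and 783, an order that 443 of the 641 genes passing as higher showed (69.1%) and 23.8% of all tested genes. *Timd4* had the same order, since its log2 ratio was 7.29 and 9.21 in pairs 784 and 779 but 3.77 and 4.56 in the others.

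The 9 genes kept more of their level in Tim-4- TAMs than *Timd4* did. In pair 793 the Tim-4- library had between 20.6% (*Prg4*) and 69.0% (*Cd14*) of the Tim-4+ level, and 7.32% for *Timd4*. In pair 783 the range was 16.5% to 88.7%, highest for *Cd93*, with 4.25% for *Timd4*. In pairs 784 and 779, where *Timd4* was at 0.638% and 0.169%, the 9 genes were at 7.75% to 43.9% and at 6.29% to 49.2%. All 9 lay above *Timd4* in each of the 4 pairs. The cells were sorted on Tim-4, and *Timd4* ranked number 1 by log2 fold change among all 16861 tested genes. A smaller loss than that of *Timd4* is thus not particular to the 9.

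**Figure D4:**
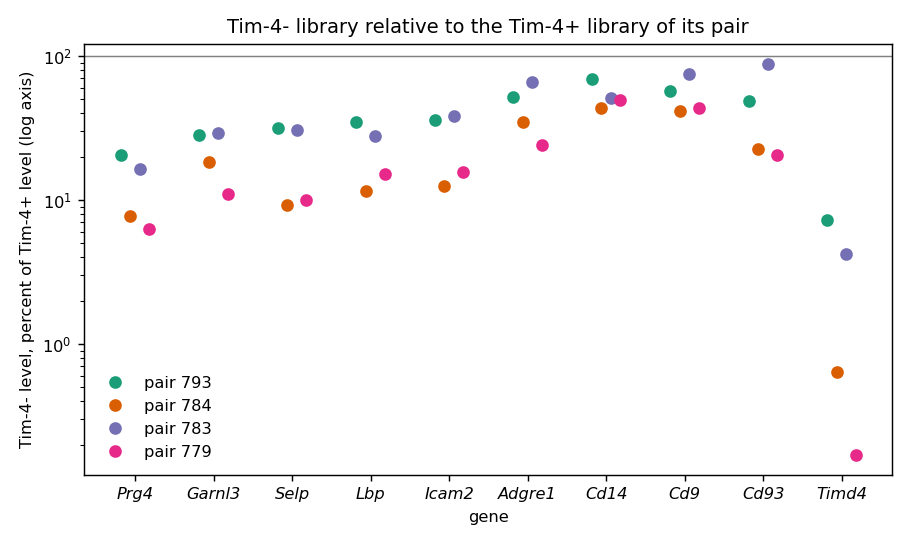
Level of each gene in the Tim-4- library as a percent of its level in the Tim-4+ library of the same pair (log axis), with 1 color per pair and the grey line at equal levels. The points of the 9 genes lie between 6.29% and 88.7%, and *Timd4* lies between 0.169% and 7.32%.

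Other genes of large peritoneal macrophages moved with the 9. This list of 28 genes was partly chosen with earlier results of these samples known and is not independent evidence of its direction. Of the 28, all were tested, 26 were higher and 0 lower at an adjusted p under 0.05 in edgeR's test, 24 also passed 2-fold, and the median log2 fold change was 2.03. The 24 became 8 without pair 784, 9 without the pair number in the fit and 16 without the filter on low counts, with medians of 1.84, 1.97 and 2.02. The largest differences were those of *Cxcl13* (3.79, adjusted p = 0.00464), a chemokine for B cells, *Wnt2* (3.79, adjusted p = 0.00875) and *Apoc1* (3.57, adjusted p = 2.89e-04). *Thbs1*, which encodes thrombospondin 1 and had the highest mean CPM, was at 11459 ± 5911 and 3851 ± 2934 CPM (SD, n = 4 each, log2 fold change 1.61, adjusted p = 0.0137). *Gata6* itself was higher by only 0.71 (adjusted p = 0.0122), well below the list median. *Nt5e* (0.71, adjusted p = 0.11) and *Bcam* (0.06, adjusted p = 0.821) did not pass. Of the 9 genes, 6 are also in the residential macrophage signature that the study used, and without them 72 of the 89 remaining tested genes of that signature were higher and 3 lower at an adjusted p under 0.05, with a median log2 fold change of 1.31. In the whole signature, 64 genes were higher with 2-fold, and this number was 11 without pair 784 and 12 without the pair number.

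Genes of monocyte-derived peritoneal macrophages were mostly lower in Tim-4+ TAMs. Of 19 tested genes 16 had a log2 fold change below 0 and 3 above it, and 12 were lower and 0 higher with an adjusted p under 0.05 in edgeR's test, with a median log2 fold change of -1.65. The 12 also passed 2-fold, and became 3 without pair 784 and 1 without the pair number in the fit. *Ccr2* (-3.61, adjusted p = 8.29e-04), the chemokine receptor of monocytes, *Cd226* (-3.51, adjusted p = 0.0122) and *Ly6c2* (-3.24, adjusted p = 0.00776) had the largest falls. *Cd74*, the highest by mean CPM, had 2312 ± 1656 and 5588 ± 2296 CPM (SD, n = 4 each, log2 fold change -1.53, adjusted p = 0.0185). Their summed level in Tim-4+ TAMs was 2503 and 1507 CPM in pairs 793 and 784 and 6436 and 7552 CPM in pairs 783 and 779. The Tim-4+ library of pair 779 thus had the highest sum of these genes among Tim-4+ libraries and also the highest sum of the 9 members (19343 CPM), while the sum of the 9 was lowest in pair 783 (7358 CPM). *Prg4* made up 54.1% to 65.8% of that sum in Tim-4+ libraries. The sum of the monocyte-derived genes was mostly *Cd74* (3983 CPM in the Tim-4+ library of pair 779), *H2-Ab1* (1245), *H2-Aa* (1115) and *H2-Eb1* (858). Less abundant genes of that list went either way between the Tim-4+ libraries of pairs 779 and 783. *Cx3cr1* had 15.3 and 197 CPM there, and *Retnla* had 19.9 and 1.96 CPM. The sum thus does not stand for the whole list.

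**Figure D5:**
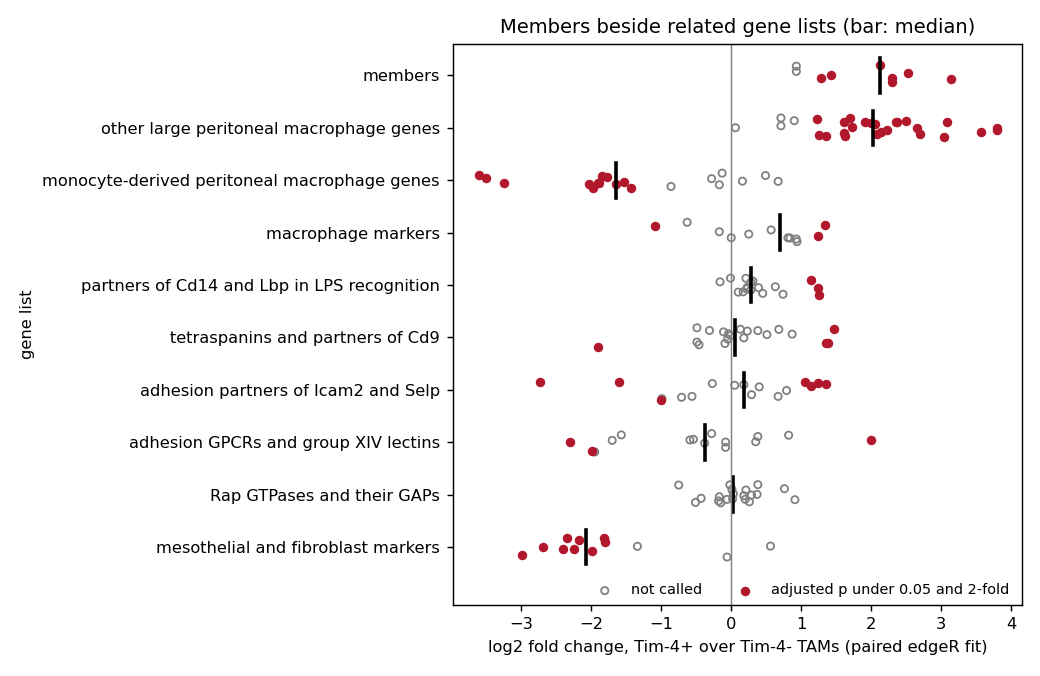
Log2 fold change of Tim-4+ over Tim-4- TAMs (x axis) for every tested gene of the 9 members and of 9 related lists, in red where adjusted p was under 0.05 with a 2-fold difference, with a black bar at the median. The medians of the members (2.13) and of other large peritoneal macrophage genes (2.03) lie to the right, and those of mesothelial and fibroblast markers (-2.08) and of monocyte-derived macrophage genes (-1.65) to the left.

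General macrophage markers were also unequal between the subsets, and the 9 genes were therefore set beside them. Of 12 markers, 7 were higher and 2 lower at an adjusted p under 0.05, with a median log2 fold change of 0.69 and a range from -1.09 (*Mrc1*, adjusted p = 0.0115) to 1.34 (*Cd68*, adjusted p = 0.00891). *Lyz2*, the highest by mean CPM, had 39793 ± 6337 and 21178 ± 4994 CPM (SD, n = 4 each, log2 fold change 0.93, adjusted p = 0.0312). *Csf1r*, the receptor on which macrophages depend and a gene singled out after its values were seen, had 2775 ± 168 and 2358 ± 365 CPM (SD, n = 4 each, log2 fold change 0.25, adjusted p = 0.353).

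Against these markers the 9 genes differed among themselves. The sum of the 12 markers had log2 ratios of 0.68, 1.04, 0.58 and 1.18 in pairs 793, 784, 783 and 779, again higher in pairs 784 and 779 than in the others. *Adgre1*, *Icam2*, *Selp*, *Prg4*, *Lbp* and *Garnl3* exceeded that ratio in all 4 pairs, with mean excesses from 0.41 ± 0.37 for *Adgre1* to 2.27 ± 0.56 for *Prg4* (log2, SD over 4 pairs). *Cd9* (0.06 ± 0.17) and *Cd14* (0.06 ± 0.26) did not differ from the summed markers beyond the spread between pairs, and *Cd93* (0.54 ± 0.72) exceeded them in 3 pairs. Without *Lyz2* in the sum the same 6 genes exceeded it in all 4 pairs. In pair 783 *Adgre1* was nearly level with the markers, with an excess of 0.01, and of 0.05 without *Lyz2*. Against *Csf1r* alone, 8 genes exceeded its ratio in all 4 pairs, *Cd9* by 0.68 ± 0.32 and *Cd14* by 0.68 ± 0.14, and *Cd93* did in 3.

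Markers of cells other than macrophages moved with the sort as well. The summed level of the 12 mesothelial and fibroblast markers was 127 to 471 CPM in Tim-4+ TAMs and 489 to 2312 CPM in Tim-4- TAMs, and 9 of the 12 were lower in Tim-4+ TAMs with 2-fold and an adjusted p under 0.05, with none at 0. The 9 became 0 without pair 784, and 1 without the pair number in the fit or without the filter on low counts, while the median log2 fold change stayed between -2.10 and -1.95 under these settings. *Krt19*, the highest by mean CPM, which epithelial cells also express, had 65.2 ± 40.8 and 308 ± 171 CPM (SD, n = 4 each, log2 fold change -2.25, adjusted p = 0.0116). Among Tim-4- libraries that sum was 489, 1531, 926 and 2312 CPM in pairs 793, 784, 783 and 779, and it was highest in the same 2 pairs in which the 9 genes differed most. Tumor cells were largely and not wholly removed on Ficoll, and whether those left added to these markers was not tested. The part of any of these cells in the differences of the 9 genes was not tested either.

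Platelets and endothelial cells express some of the 9 genes, *Selp* and *Icam2* among them. Of 10 platelet markers 3 were tested, *Gp1bb* and *Treml1* had no counts in any library, and the summed level of 364 to 954 CPM in Tim-4+ TAMs and 120 to 298 CPM in Tim-4- TAMs was nearly all *Pf4*, a chemokine that macrophages also express (698 ± 255 against 167 ± 86.8 CPM, SD, n = 4 each, log2 fold change 2.09, adjusted p = 0.00855). The 10 endothelial markers summed to 7.95 to 20.3 CPM in Tim-4+ TAMs and 20.4 to 58.1 CPM in Tim-4- TAMs, and *Cldn5* had no counts. Of 6 tested, 1 was higher and 1 lower at an adjusted p under 0.05. *Esam*, with the highest mean CPM of them, had 7.80 ± 3.95 and 32.1 ± 16.8 CPM (SD, n = 4 each, log2 fold change -2.01, adjusted p = 0.0237), and *Egfl7*, named after its values were seen, had 1.09 ± 0.605 and 0.0884 ± 0.0686 CPM (SD, n = 4 each, log2 fold change 3.67, adjusted p = 0.00848). The part of platelets or endothelial cells in the levels of the 9 genes was not tested.

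Markers of lymphocytes, granulocytes and mast cells, and dendritic cells were low in all libraries. Their sums were 6.54 to 17.8, 3.05 to 4.30 and 14.0 to 30.7 CPM in Tim-4+ TAMs and 12.4 to 21.0, 2.73 to 24.1 and 10.9 to 19.0 CPM in Tim-4- TAMs. Among 7 lymphocyte markers tested 0 were higher and 1 lower at an adjusted p under 0.05, 0 of 5 granulocyte and mast cell markers passed in either direction in edgeR's test, and 1 dendritic cell marker was higher and 1 lower of 7 tested. The highest mean CPM over all 8 libraries was that of *Cd79a* (4.59 ± 2.14 and 3.95 ± 0.981 CPM), *Cpa3* (0.290 ± 0.186 and 3.69 ± 2.93 CPM) and *Zbtb46* (4.04 ± 1.59 and 7.86 ± 4.22 CPM, SD, n = 4 each).

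Some genes ran nearly in parallel with the 9 over the 8 libraries. Likeness was the Pearson r of log2 CPM among 8529 protein-coding genes whose mean was at least 10 CPM, which is a description, since the points share the subset, the pair and the library. The closest to *Selp* were *Pi16* (r = 0.998), *F5* (0.993), which encodes coagulation factor V, and *Ltbp1* (0.992), and the closest to *Prg4* were *Cd24a* (0.995), *Ccm2l* (0.990) and *Plxdc2* (0.990). *Garnl3* ran with *Plxdc2* (0.994), *F5* (0.993) and *Cdkn1a* (0.990), and *Lbp* with *Glb1* (0.990), *Vsig4* (0.987) and *Ecm1* (0.986).

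*Icam2* was closest to *Serpinb1a* (0.994), *Ccnk* (0.988) and *Cfp* (0.987), which encodes properdin, and *Adgre1* to *Hipk2* (0.990), *Numb* (0.986) and *Rab27a* (0.985). *Cd9* ran with *Pf4* (0.991), *Plekhg1* (0.990) and *Rhoa* (0.990), and *Cd14* with *Prr14* (0.990), *Icam2* (0.984) and *Ccnk* (0.982). *Cd93* had the least close neighbors, *Taf6l* (0.983), *Adcy4* (0.982) and *Sult1a1* (0.981). Parallel levels did not mean differences of the same size, since *Ccnk* had a log2 fold change of 0.58 beside 2.13 for *Icam2*.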

How the data were processed

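The authors sequenced ribosomal RNA-depleted, stranded, paired-end libraries and deposited the counts of reads on each gene, 16 lanes in all, as whole numbers that were not normalized. Per the labels, FastQC 0.11.3, TopHat2 2.0.13, Cufflinks and Cuffdiff 2.2.1 were used with GRCm38, whereas the methods name hg19 as the reference. The read counter and its strand setting are not given in the sources used here, so overlapping genes are uncertain. One lane, lane 1 of the Tim-4- library of pair 793, lists gene symbols, and it was joined by order (96.8% of symbols matched at their place, and all 9 members). Lanes of a library differed by more than counting error (chi-square per degree of freedom 2.29 to 2.42, where counting alone gives about 1). They differed far less than libraries of the same subset (149.7 to 460.8) and were summed. Among the 9 members the largest difference between lanes of a library was 19.2%, for *Garnl3*. Names, exons and coordinates are from GENCODE on GRCm38 (98.6% of identifiers found), and promoter windows are from RefSeq (GRCm38.p6). Summary lines that name no gene (18.9% to 32.9% of a lane, in the 15 lanes that have them) were left out of totals and tests.

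Genes that reached 10 counts in 4 or more of the 8 libraries were tested with edgeR 4.0.16 (R 4.3.3), using TMM factors (0.833 to 0.947 in Tim-4+ TAMs, 1.052 to 1.181 in Tim-4- TAMs), the quasi-likelihood test, a block for the pair number and adjustment by Benjamini-Hochberg over 16861 genes. The numbers come from the labels, and the study calls the subsets paired. After subset means were removed, libraries of a pair correlated with r of 0.277, 0.408, 0.498 and 0.471 (pairs 779, 783, 784 and 793). CPM values are TMM-scaled and not divided by length. Calls required an adjusted p under 0.05 and a 2-fold difference. Alternatives were DESeq2 1.42.0, its size factors, total counts, other filters, lane 2 alone, no symbol-listed lane, no block and each pair left out. Counting intervals and floors cover counting error only.

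The members and lists were chosen with earlier results of these data known. Besides the 9 members, the genes named are, by rule, the called genes of each related list (at most the 3 largest in each direction) and its highest by mean CPM over all libraries, for each list of general macrophage or other cell markers only the highest by mean CPM, *Timd4*, the 3 genes closest to each member in pattern, and genes that overlap a member. *Itgal*, *Tlr4*, *Ly96*, *Csf1r*, *Mrc1*, *Cd68*, *Egfl7*, the Ral and Rheb regulators and markers at 0 counts were named outside this rule after their values were seen. So were *H2-Aa*, *H2-Ab1*, *H2-Eb1*, *Cx3cr1*, *Retnla*, *Gata6*, *Nt5e*, *Bcam* and *C1qbp*. The study's own comparison tables were not used.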

Additional observations from a re-analysis of the deposited data

Results flagged for a closer look

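In 6 of 20 groups of 4 libraries examined (each subset for the 9 members and *Timd4*), 1 library lay farther from the others than Dixon's 95% limit for 4 values allows, which chance does in about 1 in 20 groups. The groups share libraries and are not independent. In Tim-4+ TAMs the library of pair 783 was low for *Icam2* (112 CPM, others 492 to 548), *Selp* (218 CPM, others 716 to 746), *Prg4* (3977 CPM, others 11641 to 12435) and *Cd14* (965 CPM, others 1500 to 1597). In Tim-4- TAMs the library of pair 793 was high for *Selp* (238 CPM, others 66.9 to 71.9) and *Prg4* (2400 CPM, others 656 to 942). In the same Tim-4+ library *Timd4* was 524 CPM, and the mesothelial and fibroblast markers summed to 471 CPM, against 127 to 259 CPM in the other Tim-4+ libraries. In the same Tim-4- library *Timd4* was 85.0 CPM. The part of either in these values was not tested.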

How the results depend on the processing

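Every one of the 9 log2 fold changes stayed above 0 under all 13 alternatives, and 94 of the 117 gene-by-alternative values kept their side of an adjusted p of 0.05 while 23 did not. *Prg4* and *Lbp* kept theirs under all 13. The alternatives reuse the same libraries and are not independent. With all 36 ratios within pairs above 0, leaving out pairs could hardly reverse a direction. Adjusted p stayed under 0.05 in edgeR's test for 2 genes without the block, 2 without pair 784 and 5 without pair 779. Of the 9 genes, 7 passed an adjusted p under 0.05 with 2-fold. That number was 2 without the replicate block (the pair number), 4 without the count filter, where *Icam2*, *Selp* and *Cd93* no longer passed the adjusted p, and between 2 and 8 with each pair left out in turn, lowest without pair 784. No gene of the 9 was called lower under any of them. In the related lists, the calls higher and lower were 3 and 0 for LPS recognition, 3 and 1 for tetraspanins, 4 and 3 for adhesion partners, and 1 and 2 for adhesion G protein-coupled receptors. Without pair 784, the lists held 1 call in all (lower, adhesion partners), and without the block 1 higher call each for LPS recognition and adhesion partners. Scaling by total counts moved the median of all tested genes to -0.36, and the 9 log2 fold changes then ran from 0.57 to 2.78 with 6 called.

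Over all tested genes, 641 were higher and 976 lower. These numbers were 127 and 80 without the block, 397 and 504 with a filter of 50 counts in all 8 libraries, 398 and 1938 with total counts, and 988 and 1931 with pairs 784 and 779 only, an alternative chosen after the data were seen. They ranged from 76 to 792 and from 63 to 1546 with each pair left out, lowest without pair 784 and highest without pair 783. The causes were not tested.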
